A study of Homo sapiens with 2 samples.

Results

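The tumor necrosis factor (TNF) superfamily of ligands, with its receptors and the adaptor proteins that carry their signal, was examined on arrays of SAS and eSAS cells. Members were the genes whose array name starts with TNFSF or TNFRSF, together with TRAF1 to TRAF7, TNF, LTA, LTB, LTBR, FAS, FASLG, CD40, CD27, CD70, TRADD and RIPK1. This rule gave 52 genes with 66 probes of the 30484 gene names and 41000 probes on the array. They were 16 ligands, 6 receptors with a death domain, 4 decoy receptors, 16 other receptors and 9 adaptors. The remaining gene, TNFSF5IP1, was picked only through its old name, as it is now called PSMG2 and encodes a proteasome assembly chaperone. Its log2 ratio was -0.05.

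SAS is an established human cell line derived from a squamous cell carcinoma of the tongue, and the SAS sample was the unselected parental line. The eSAS sample was a population of the same line kept after 5 rounds of selection for large spheroids with Spheroid Catch, a device with a removable filter. Both were grown without any other treatment in the same serum-containing medium, and RNA of each was hybridised to 1 one-colour array. The eSAS population is thus a single selected derivative of 1 line. With 1 array per cell population, no test between SAS and eSAS cells was possible, and each difference below describes these 2 arrays.

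Ligands of this superfamily are mostly trimeric proteins on the cell surface that are shed or bind a receptor on a neighbouring cell. Receptors with a death domain, such as FAS and the TRAIL receptors, can recruit FADD and caspase-8 and start apoptosis, whereas the other receptors mainly bind TRAF proteins and lead to NF-kB and stress kinase signalling. Decoy receptors bind ligand without passing on a death signal. Epithelial cells and carcinomas commonly express several of the receptors, while many of the ligands are best known from lymphocytes and other immune cells.

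Among the members, LTB showed the largest higher ratio in eSAS cells, and TNFSF15 was among those with a lower one. The bases before the transcription start of both genes are shown because NF-kB, the factor that many of these receptors activate, has a known recognition motif that can be searched there. TNFRSF9 is shown as the third sequence because it held the motif as well and had a lower signal in eSAS cells, where it was not well above background. Sequences run 5′ to 3′ along the strand of the gene and hold the 250 bases before the start in RefSeq, build GRCh38.p14. Capitals mark each match to the NF-kB consensus on either strand.
LTB, chr6:31582426-31582675, minus strand: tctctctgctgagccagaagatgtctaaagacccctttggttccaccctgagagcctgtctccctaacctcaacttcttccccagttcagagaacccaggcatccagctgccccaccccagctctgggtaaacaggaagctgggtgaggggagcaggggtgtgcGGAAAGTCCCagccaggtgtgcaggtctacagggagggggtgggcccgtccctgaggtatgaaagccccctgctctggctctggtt
TNFRSF9, chr1:7940840-7941089, minus strand: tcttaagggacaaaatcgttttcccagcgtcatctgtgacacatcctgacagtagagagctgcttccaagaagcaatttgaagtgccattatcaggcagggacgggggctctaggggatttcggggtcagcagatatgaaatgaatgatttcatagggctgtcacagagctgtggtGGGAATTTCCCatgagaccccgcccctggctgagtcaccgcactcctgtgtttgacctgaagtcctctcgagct
TNFSF15, chr9:114792531-114792780, minus strand: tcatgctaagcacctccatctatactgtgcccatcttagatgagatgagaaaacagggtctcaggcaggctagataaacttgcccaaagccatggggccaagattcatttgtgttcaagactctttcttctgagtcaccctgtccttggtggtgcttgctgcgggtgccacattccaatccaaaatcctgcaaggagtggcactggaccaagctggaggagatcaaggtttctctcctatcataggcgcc
The LTB window held 1 match, starting 86 bases before the transcription start. The TNFRSF9 window held 2 overlapping matches, which start 74 and 73 bases before it. The TNFSF15 window held no match. Promoter sequence was found for 38 of the 52 members, and 5 of these 38 windows (13.2%) held a match, namely those of LTB, TNFRSF9, TNFRSF14, TNFSF14 and TRAF3. Of all 35116 promoter windows of this length, 3498 (9.96%) held one. Among the 5 members with a match, only LTB was at least 1.5-fold apart, against 11.0% of all genes measured and 13.5% of the measured members. LTB was higher in eSAS cells, and whether the match bears on its ratio was not tested. TNFRSF9, at signals of 21.0 in SAS cells and 5.68 in eSAS cells, was lower by at least 1.33-fold, which is under 1.5-fold. The TRAF3 and TNFRSF14 log2 ratios were -0.00053 and 0.16, and TNFSF14 was not well above background on either array. No promoter entry was found for 14 members, CD70 and CD40 among them.

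Signals are processed intensities in arbitrary units, after subtraction of background. They were divided by the 75th percentile of each array (1242 for SAS and 1196 for eSAS) before the log2 ratio of eSAS to SAS was taken, so a positive ratio means a higher value in eSAS cells. Probes of 1 gene were averaged where they were well above background on both arrays, and a gene was called apart at a difference of at least 1.5-fold. Where a probe was well above background on 1 array only, the dim side was raised to at least the lowest signal well above background on that array (12.8 for SAS and 15.2 for eSAS), and the difference is given as a bound. The SD of the log2 ratio between spots of 1 probe was 0.184 for probes with signals under 100, 0.0710 between 100 and 1000, and 0.0424 above 1000. This spread is technical and leaves out variation between cultures. Spots of 1 probe are not repeats of a culture, also where they all lie on the same side of 0. How often the spots of other probes separated between the arrays in this way was not counted. The software marked 194 spots of the SAS array as non-uniform, 183 of them in rows 450 to 510 of the array, against 8 on the eSAS array.

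Of the 52 members, 33 were well above background on both arrays, 4 on 1 array only and 15 on neither. Of the 37 measured, 2 were higher and 3 were lower in eSAS cells by at least 1.5-fold, which is 13.5% of them. Among all 20865 genes measured in the same way, 4.66% were higher and 6.34% were lower, 11.0% in all. At 2-fold, 1 member was higher and 3 were lower (10.8% of those measured), against 2.01% and 2.14% of all genes (4.15% in all). The median log2 ratio of the 33 members measured on both arrays was 0.0057, and that of all 19467 such genes was -0.0012. Of these 33 members, 30 lay within 1.5-fold, with 17 ratios above 0 and 16 below. The values that stood apart belonged to LTB, CD70 and TNFSF15 among the ligands and to TNFRSF11A and TNFRSF19 among the receptors.

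**Figure D1:**
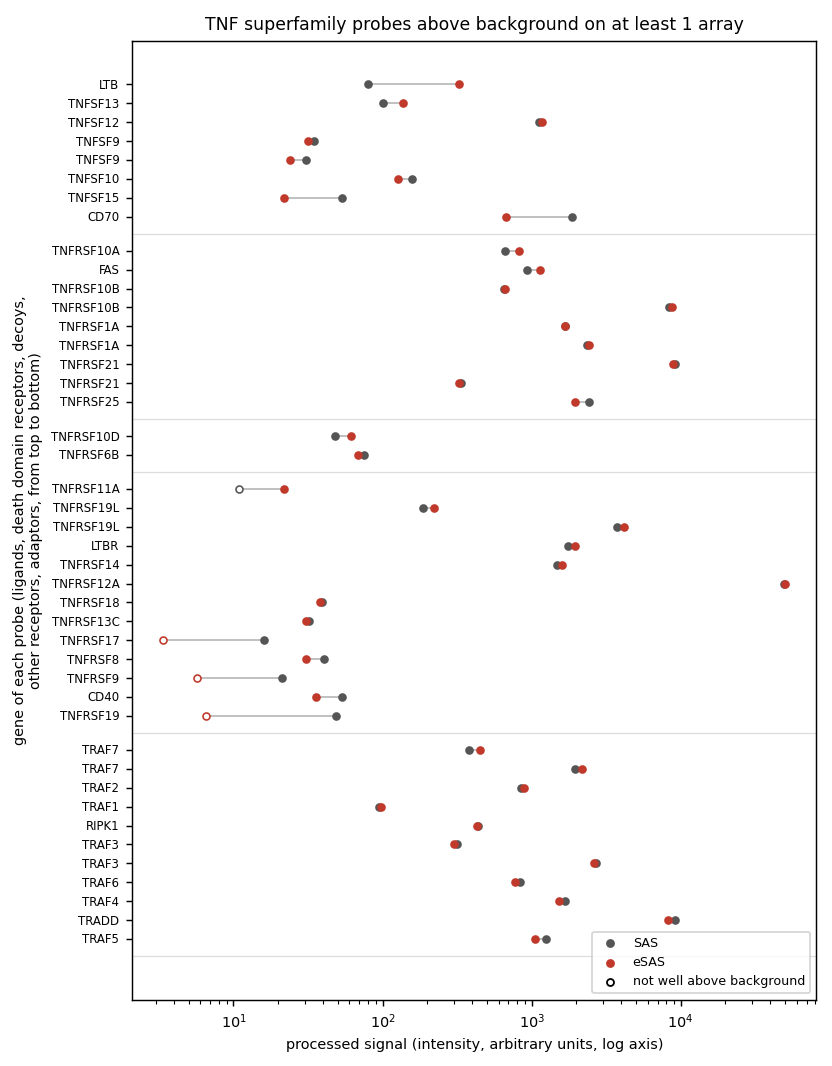
Processed signal (intensity, log axis) of family probes, with SAS in grey, eSAS in red and open circles for signals not well above background. For each gene, probes well above background on both arrays are shown, or those above on 1 array where there were none, so the second TNFSF15 probe is left out. Most pairs of points lie close together, whereas LTB, CD70 and TNFSF15 are spread along the axis. TNFRSF19, TNFRSF9 and TNFRSF17 have an open eSAS point and TNFRSF11A an open SAS point.

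Of the 16 ligands, 7 were well above background on both arrays and 9 were dim on both. The 7 had a median log2 ratio of -0.19, with 1 called higher and 2 called lower. This is 42.9%, against 8.18% of all genes measured on both arrays, but the share rests on 7 genes. LTB encodes lymphotoxin beta, the membrane anchor of the lymphotoxin heterotrimer that binds the receptor LTBR. Its probe, at chr6:31656448-31656507 in hg18, gave a signal of 79.6 in SAS cells and 327 in eSAS cells. The log2 ratio was 2.09, a 4.26-fold higher value in eSAS cells, which was 2.74-fold with normexp background correction when marked local backgrounds were left out. As the RNA came from whole cultures, a different share of expressing cells and a different level per cell cannot be told apart, here or for the values that follow. The mean and the median pixel of this spot were close to each other on both arrays, at 139 and 136 for SAS and at 418 and 419 for eSAS. The 8 spots adjacent to it had a median log2 ratio of 0.078.

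CD70, the ligand of the costimulatory receptor CD27, was the other ligand with a clear signal on both arrays to stand apart. Its probe (chr19:6536857-6536916, hg18) gave 1867 in SAS cells and 672 in eSAS cells. The log2 ratio of -1.42 corresponds to a 2.68-fold lower value in eSAS cells, from 1 spot on each array. The median log2 ratio of its 8 adjacent spots was 0.070. CD27, its receptor, was not well above background on either array.

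TNFSF15, known as TL1A, is a ligand of the death domain receptor TNFRSF25. The probe at chr9:116592060-116592119 in hg18 gave 53.1 in SAS cells and 21.7 in eSAS cells, a log2 ratio of -1.24 and a 2.36-fold lower value. A second TNFSF15 probe gave 15.4 in SAS cells and 7.40 in eSAS cells and was well above background only in SAS cells, so it had the same direction but allowed no bound on the fold. Both probes were dim, and the ratio of the first depended on how background was treated, as it was -0.41 without background correction and turned to 2.48 with normexp, a setting in which the median of all genes was 0.68.

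The other ligands measured on both arrays lay within 1.5-fold. TNFSF10 encodes TRAIL, which binds the death receptors TNFRSF10A and TNFRSF10B, and its probe was spotted 10 times on each array. Spots ranged from 135 to 178 around a signal of 158 in SAS cells and from 114 to 140 around 128 in eSAS cells. The log2 ratio was -0.25 ± 0.054 (SD over 10 spots), and 10 of 10 spots were lower in eSAS cells. Normexp turned the ratio to 1.65, with a median of all genes of 0.68. The ratio was -0.19 under normexp without marked local backgrounds and -0.16 with no background correction. TNFSF13 (APRIL), a ligand for B lineage receptors, gave 101 and 137, with a log2 ratio of 0.49. TNFSF12 (TWEAK), the ligand of TNFRSF12A, gave 1127 and 1168, and TNFSF9, the ligand of the costimulatory receptor TNFRSF9, had 2 probes with log2 ratios of -0.29 and -0.094.

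Ligands that were dim in both cell populations included the founding member TNF, LTA, FASLG, TNFSF4, TNFSF8, TNFSF11 (RANKL), TNFSF13B (BAFF), TNFSF14 (LIGHT) and TNFSF18. Together with the receptors CD27, TNFRSF1B, TNFRSF4, TNFRSF10C, TNFRSF11B and TNFRSF13B, they made up the 15 members without a value. Their 18 probes had signals of 2.61 to 12.6 on the SAS array and 3.38 to 16.0 on the eSAS array. One of the FASLG spots reached 60.3 on the SAS array, against 3.77 on the eSAS array, but it was marked by the scanner software and was left out.

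All 6 death domain receptors were well above background in both SAS and eSAS cells. None of the 6 was called apart, against 8.18% of all genes measured on both arrays. Their median log2 ratio was 0.093, with a range of -0.25 to 0.37. FAS, the receptor of FASLG, was measured by 10 spots, which ranged from 865 to 1005 in SAS cells and from 1056 to 1212 in eSAS cells. Its signal was 930 in SAS cells and 1135 in eSAS cells, and the log2 ratio was 0.34 ± 0.039 (SD over 10 spots). Of these spots, 10 of 10 were higher in eSAS cells, although the difference was under 1.5-fold.

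TNFRSF1A, the main receptor of TNF on epithelial cells, was nearly level. Its probe with 10 spots gave 1673 in SAS cells and 1683 in eSAS cells, with a log2 ratio of 0.063 ± 0.045 (SD over 10 spots) and 9 of 10 spots higher. Its second probe gave 2360 and 2420, a log2 ratio of 0.091. The TRAIL receptor TNFRSF10A (DR4) gave 662 in SAS cells and 825 in eSAS cells, the highest log2 ratio of this group at 0.37.

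The other TRAIL receptor, TNFRSF10B (DR5), was measured by 2 probes at 649 and 667 (log2 ratio 0.095) and at 8298 and 8701 (log2 ratio 0.12), with SAS given first. TNFRSF21 (DR6), an orphan receptor with a known role in neurons and T cells, gave 9236 in SAS cells and 8825 in eSAS cells by 1 probe, with a log2 ratio of -0.011. Its second probe gave 334 and 324, with a log2 ratio of 0.0075. TNFRSF25 (DR3), the receptor of TNFSF15, gave 2411 and 1951 and had the lowest log2 ratio of the death domain receptors at -0.25. The only TNFRSF25 spot lies within rows 450 to 510 of the array.

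**Figure D2:**
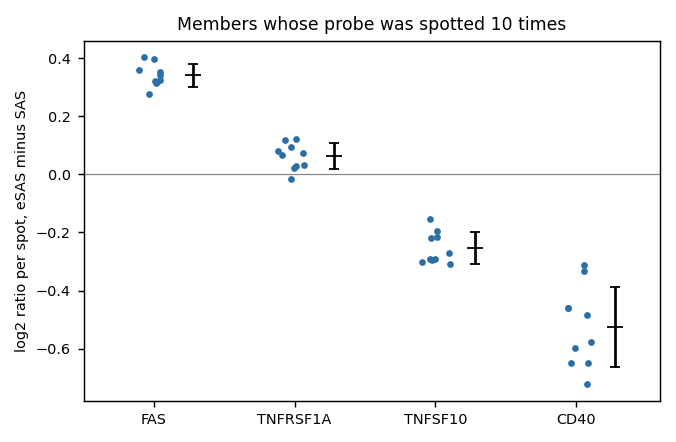
Log2 ratio of eSAS to SAS at each of 10 spots for the 4 members measured by a probe with 10 spots above background on both arrays, with the mean and SD over spots beside them. FAS spots all lie above 0, TNFSF10 and CD40 spots all lie below 0, and TNFRSF1A spots lie near 0.

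Of the decoy receptors, TNFRSF10D, which binds TRAIL, gave 47.7 in SAS cells and 61.0 in eSAS cells, a log2 ratio of 0.41. TNFRSF6B, a soluble decoy for FASLG, gave 74.6 and 68.3, a log2 ratio of -0.074. TNFRSF10C and TNFRSF11B (osteoprotegerin) were dim on both arrays. None of the 4, of which 2 had a value, was called apart, against 8.18% of all genes measured on both arrays.

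Among the 16 other receptors, 8 were measured on both arrays, 4 on 1 array and 4 on neither. The 8 had a median log2 ratio of 0.043 and a range of -0.52 to 0.27. None of them differed by 1.5-fold, against 8.18% of all genes measured on both arrays. TNFRSF12A (FN14), the receptor of TWEAK, was bright on both arrays, with 49481 in SAS cells and 50382 in eSAS cells, a log2 ratio of 0.080. LTBR, the receptor of the lymphotoxin heterotrimer, gave 1752 and 1959, a log2 ratio of 0.22. TNFRSF14 (HVEM) and TNFRSF19L, now called RELT, had log2 ratios of 0.16 and 0.27, and TNFRSF18 (GITR) and TNFRSF13C (BAFF receptor) had 0.0057 and -0.0086.

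CD40, a costimulatory receptor of antigen-presenting cells that carcinoma cells can also express, was dim but was measured by 10 spots. They ranged from 48.4 to 58.7 around 53.1 in SAS cells and from 31.0 to 40.1 around 35.6 in eSAS cells. Its log2 ratio was -0.52 ± 0.138 (SD over 10 spots), a 1.44-fold lower value, and 10 of 10 spots were lower in eSAS cells. Normexp turned the ratio to 2.45, with a median of all genes of 0.68. The ratio was -0.23 under normexp without marked local backgrounds and -0.19 with no background correction. TNFRSF8 (CD30), another dim receptor, had a log2 ratio of -0.36.

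The 4 receptors measured on 1 array had their signals at the low end of the scale. TNFRSF19 (TROY), an orphan receptor of epithelial and neural progenitors, gave 48.6 in SAS cells by 1 probe and was not well above background in eSAS cells (6.55), at least 3.08-fold lower. This bound was under 1.5-fold without background correction (log2 bound -0.58), and normexp left no bound. The median log2 ratio of the 8 adjacent spots was -0.031. A second TNFRSF19 probe, against another transcript, was dim on both arrays at 2.77 and 3.25. TNFRSF9, a costimulatory receptor of T cells, gave 21.0 in SAS cells and 5.68 in eSAS cells, at least 1.33-fold lower, and TNFRSF17 (BCMA), a plasma cell receptor, gave 16.1 and 3.38, at least 1.02-fold lower.

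TNFRSF11A, which encodes RANK, the receptor of RANKL, was the only one of these 4 that was measured in eSAS cells. It gave 21.7 there and 11.0 in SAS cells, where it was not well above background, at least 1.76-fold higher. The bound was 1.13-fold without background correction and 1.02-fold with normexp when marked local backgrounds were left out, both under 1.5-fold. Its single spot lies in row 497, inside the stretch of rows where the SAS array had 183 marked spots, although this spot was not marked itself, and its adjacent spots had a median log2 ratio of 0.015. Whether the array surface contributed to this value was not tested.

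All 9 adaptors were well above background on both arrays, and none was called apart, against 8.18% of all genes so measured. Their median log2 ratio was -0.00053 and their range was -0.18 to 0.26. TRADD, which links TNFRSF1A to TRAF2 and RIPK1, gave 9199 in SAS cells and 8245 in eSAS cells, a log2 ratio of -0.10. RIPK1, the kinase at the branch between survival and death signalling, had a log2 ratio of 0.033. TRAF2 and TRAF3, which together control the noncanonical NF-kB kinase, had log2 ratios of 0.13 (a spot in rows 450 to 510) and -0.00053, and TRAF6, which also serves interleukin-1 receptors, had -0.045. TRAF1, TRAF4, TRAF5 and TRAF7 had 0.097, -0.084, -0.18 and 0.26. Of the 8 members with several probes above background on both arrays, the probes of 6 lay on the same side of 0, and the largest difference between probes was 0.19.

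**Figure D3:**
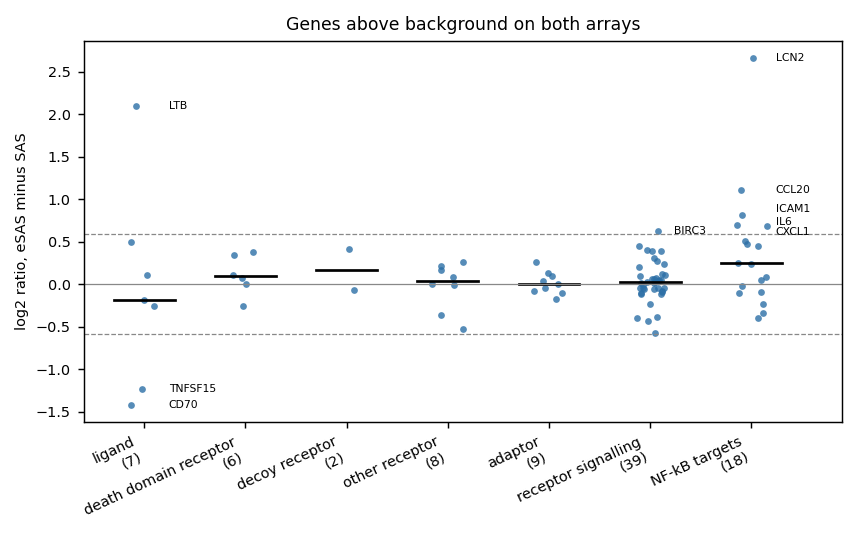
Log2 ratio of eSAS to SAS for each gene above background on both arrays, by role in the family and for the lists of signalling genes and NF-kB targets, with the median as a bar, 1.5-fold as dashed lines and the number of genes in parentheses. Receptors and adaptors stay between the dashed lines, while the ligands reach from -1.42 to 2.09.

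The members were also set side by side as 18 ligand and receptor pairs. Both partners were measured in 7 pairs, the receptor alone in 7, the ligand alone in 2 and neither in 2. In 2 pairs the ligand was called apart while the receptor lay within 1.5-fold. They were LTB (log2 ratio 2.09) with LTBR (0.22) and TNFSF15 (-1.24) with TNFRSF25 (-0.25). Of all genes measured on both arrays, 8.18% were called apart, so a receptor within 1.5-fold is the usual case. The TNFSF15 ratio itself lay within 1.5-fold with no background correction (-0.41). For TNFSF10, the ligand ratio was -0.25, and those of TNFRSF10A and TNFRSF10B were 0.37 and 0.11. TNFSF12 and TNFRSF12A had 0.11 and 0.080.

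Signalling genes downstream of these receptors, from the FADD and caspase arm to the IkB kinases and NF-kB subunits, were counted as a list of 40 genes outside the membership rule. Of the 39 measured, 1 was called higher and none lower, which is 2.56%, against 8.18% of all genes measured on both arrays. The median log2 ratio was 0.021 with a range of -0.58 to 0.63. The called gene was BIRC3 (cIAP2), a ubiquitin ligase that binds TRAF2 and is itself an NF-kB target, with 65.3 in SAS cells and 97.0 in eSAS cells, a log2 ratio of 0.63. This 1.54-fold difference lay just past the 1.5-fold limit, at signals under 100, where the SD between spots was 0.184. RIPK3, the kinase of necroptosis, was dim on both arrays.

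Of the 19 known targets of NF-kB with a value, 6 were called higher in eSAS cells (31.6%, against 4.66% of all genes). None was called lower, against 6.34% of all genes. The list was chosen with earlier results of these data known, so its share is not independent of them. The 18 measured on both arrays had a median log2 ratio of 0.25. Left out of this list were BIRC3, NFKBIA, TNFAIP3, NFKB1, NFKB2 and RELB, targets that were counted among the signalling genes above. BIRC3 was called higher, as given there. NFKBIA, TNFAIP3, NFKB1, NFKB2 and RELB had log2 ratios of -0.050, 0.40, 0.043, 0.41 and 0.27 and were not called. LCN2, an iron-scavenging secreted protein, gave 344 in SAS cells and 2098 in eSAS cells, a log2 ratio of 2.66. CCL20, a chemokine for cells with CCR6, gave 58.9 and 122, a log2 ratio of 1.11. ICAM1 (adhesion molecule), IL6 and CXCL1 had log2 ratios of 0.81, 0.70 and 0.69. CCL2, dim at 4.84 in SAS cells, reached 28.8 in eSAS cells, at least 2.31-fold higher. This bound rests on a dim signal and was not compared under other background treatments. IL8, CCL5, CXCL10 and VCAM1 were dim on both arrays. These genes also respond to factors other than NF-kB, and its activity was not measured.

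Superfamily genes that the rule does not pick by name included NGFR, the p75 neurotrophin receptor, which gave 2042 in SAS cells and 726 in eSAS cells, a log2 ratio of -1.44. EDA, the ectodysplasin ligand of ectodermal appendages, gave 38.4 and 24.2, a log2 ratio of -0.61. This came from the 1 of its 2 probes that was well above background on both arrays. The 1.53-fold difference lay just past the 1.5-fold limit, at signals under 100, where the SD between spots was 0.184. EDARADD, the adaptor of the EDA receptor, had a log2 ratio of -0.014. EDAR, EDA2R and CD40LG were not well above background.

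Probes within 100 kb of the 3 ligands apart were compared as well, with positions in hg18. LTB lies beside LTA and TNF in the major histocompatibility complex, and both of these neighbours were dim on both arrays. Of 32 other probes in the window, 24 were measured on both arrays, with a median log2 ratio of 0.011. Of these 24, 3 differed by at least 1.5-fold, against 10.6% of all probes measured, a share that includes bounds. The nearest of the 3 was NCR3, an activating receptor of natural killer cells, with a probe 8.23 kb away. It gave 14.6 in SAS cells and 67.7 in eSAS cells, a log2 ratio of 2.27. The SAS value was close to 12.8, the lowest signal well above background on that array. ATP6V1G2, a subunit of the vacuolar proton pump, was lower at -0.82, and 1 of the MICB probes was higher at 0.67. Near CD70, 5 of 8 other probes were measured on both arrays with a median of -0.021, and the neighbouring ligand TNFSF9 was among them. The complement gene C3, 93.3 kb from CD70, gave 569 and 1186, a log2 ratio of 1.11. For TNFSF15, the only other probe measured on both arrays was for the transcript THC2650074, 5.25 kb away, which gave 532 in SAS cells and 200 in eSAS cells, a log2 ratio of -1.35.

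**Figure D4:**
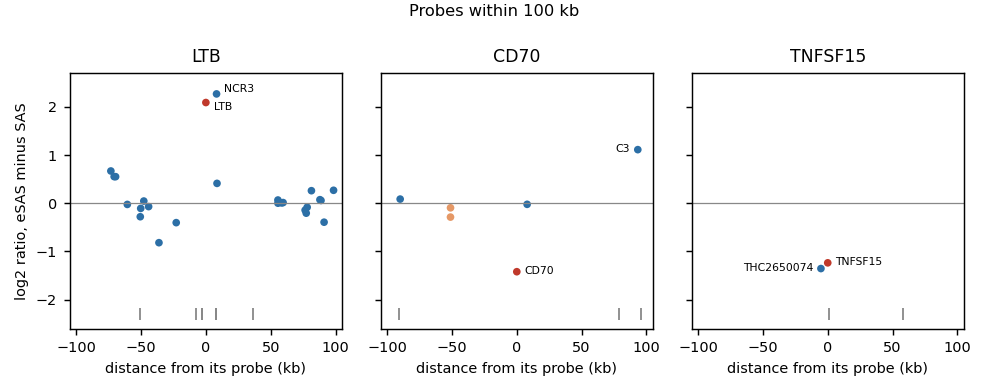
Log2 ratio of eSAS to SAS for probes within 100 kb of the LTB, CD70 and TNFSF15 probes against the distance in kb, with the named ligand in red, other members in orange, other genes in blue and grey ticks for probes not well above background on both arrays. NCR3 lies close to LTB and THC2650074 close to TNFSF15, whereas the probes nearest to CD70 stay near 0.

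Because many of the ligands are typical of immune cells, markers of other cell types were examined beside them. Of the leukocyte markers, CD14 and CD68 were measured, with log2 ratios of 0.17 and 0.12, and the defining markers PTPRC, CD3E, CD3D, LYZ and NKG7 were not well above background on either array. Of the endothelial markers, VWF had a log2 ratio of -0.10, CDH5 was measured in SAS cells only and PECAM1 was dim. Of 5 fibroblast markers, COL1A1 was measured in SAS cells only, LUM was at least 2.40-fold higher in eSAS cells at a signal of 29.6, and COL1A2, COL3A1 and DCN were dim. Of 9 squamous epithelial markers, 7 had a value, and all 7 had a lower signal in eSAS cells, with a median log2 ratio of -0.48. Called lower were 2 of them, KRT5 (-0.63) and SFN (-0.59), which is 28.6%, against 6.34% of all genes, bounds included. The summed signal of the 7 markers was 52803 in SAS cells and 35959 in eSAS cells, and whether this moved with the ratios of the members was not tested.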

How the data were processed

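The SAS and eSAS samples were each hybridised to 1 one-colour array. The authors deposited the scanner output of Agilent Feature Extraction (version 10.7.3.1 per the submitters' processing notes), and its processed signal is a linear intensity after background subtraction and detrending within the array, with no scaling between arrays. The authors' table for the whole series held the same intensity values for all 43376 probe spots of both arrays (relative tolerance 1e-05).

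From there, control spots and spots marked as non-uniform or population outliers on either array were left out, and the log2 signal was scaled to the 75th percentile of its array and averaged over spots of a probe and over probes of a gene. A probe was well above background where more than 50 percent of its spots were. Gene names and probe positions (hg18) are those of the array, and the exon of each probe is not given. Full values are given for members at least 1.5-fold apart or with a bound, those with probes over 1 apart in log2 ratio (none), the 3 with the highest SAS signal (TNFRSF12A, TNFRSF21 and TRADD) and FAS, TNFRSF1A, TNFRSF10A, TNFRSF10B, TNFSF10, CD40, LTBR, TNFRSF21 and TNFRSF12A, and list genes are named where at least 1.5-fold apart. Values of other members, dim list genes and genes near LTB, CD70 and TNFSF15 were added after they were seen. The members and lists were chosen with earlier results of these data known. Of the squamous markers, TP63 was not matched by this symbol and the only PERP spot was marked. One leukocyte marker is not reported here.

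Each condition had a single array, which leaves nothing to test with, so no test was made, and the number of arrays limits the precision. Alternatives were no scaling, median centring, quantile normalization, normexp (offset 50) with and without marked local backgrounds, no background correction, the series table, marked spots kept, rows 450 to 510 left out, no filter on dim probes, no bounds, the brightest probe, probes in place of genes, and a 2-fold limit. The software was limma 3.58.1 in R 4.3.3, with numpy 2.4.6 and pandas 2.3.3 in Python 3.11.15. The counting was tested on simulated data in which only genes with a bright signal were changed, so bounds and changes of dim genes were not covered.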

Additional observations from a re-analysis of the deposited data

How the results depend on the processing

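Scaling by no factor, by the median or by quantiles, the series table and keeping marked spots moved each of 14 named member ratios by under 0.0748 (the replicate-spot SD over all probes, wider than the 0.0424 of bright probes), and the count of members apart stayed at 5. That count became 17 of 37 under normexp (57.4% of all genes called), 3 of 37 under normexp without marked local backgrounds (4.31%), 2 of 37 with no background correction (4.82%), 12 of 52 with no filter on dim probes (15.4%) and 3 of 33 with no bounds (8.18%). Under normexp the median log2 ratio of the members was 0.42, against 0.68 for all genes. TNFSF15 reversed there, at 2.48, and members under 1.5-fold also changed sign, namely CD40 (2.45), TNFSF10 (1.65), TNFRSF12A (-0.49), TNFRSF1A (-0.16) and TNFRSF21 (0.19). LTB and CD70 stayed past 1.5-fold in the same direction under each background treatment (LTB at 1.45 to 2.31). TNFSF15 lay within 1.5-fold under normexp without marked local backgrounds (-0.43) and with no background correction (-0.41). The log2 bound of TNFRSF19 was -0.58 with no background correction, -0.74 under normexp without marked local backgrounds and 0 under normexp, and that of TNFRSF11A was 0.18, 0.031 and 2.98. The cause of these shifts was not tested. Single genes outside the members, such as CCL2, LUM, EDA and NCR3, were not compared under the other background treatments. With rows 450 to 510 left out, 4 members were called, without TNFRSF11A. No paired analysis was possible because each condition has a single array. Signals under 100 carried the widest spread of replicate spots (SD 0.184).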
